A study of Mus musculus with 4 samples.

Results

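Aminoacyl-tRNA synthetases are the enzymes that attach each amino acid to its transfer RNA. The 35 synthetase genes described here were taken from a list of gene symbols, 19 for enzymes of the cytosol and 16 for enzymes of the mitochondrion, whose symbols end in 2. They were matched by gene identifier among 55536 annotated mouse genes, and all 35 passed the filter on low counts used for testing. The rule uses gene names and no measured value.

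Each synthetase recognises its own tRNA set and its amino acid, and several proofread the product and hydrolyse a wrongly charged tRNA. Mammalian cells keep a cytosolic and a mitochondrial enzyme for most amino acids, all encoded in the nucleus, while a few genes such as Kars and Gars make the enzyme of both compartments. In the cytosol several synthetases are bound in a multisynthetase complex held by the scaffold proteins Aimp1, Aimp2 and Eef1e1, and many cytosolic synthetase genes are known targets of the transcription factor ATF4 in the integrated stress response, which uncharged tRNA can start through the kinase Eif2ak4.

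RNA was measured by polyA-selected RNA sequencing in bone-marrow-derived macrophages of C57BL/6J mice, in 1 group of 4 replicates. The cells had been exposed to 100 ng/ml lipid A, the membrane anchor of bacterial endotoxin that activates TLR4, for 12 h, then kept without it for 12 h, and were collected at 0 min of a second exposure. Other label fields call the agent lipoprotein A, age and sex were not collected, and the 4 replicates carry the same donor identifier, so the spread given here is that between these libraries and may be technical in part. The series has no untreated cells, and nothing here measures what lipid A did.

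Per the deposited notes, replicates 3 and 4 were each made from 4 read files and replicates 1 and 2 from 6, and what this number reflects is not known. This is the only recorded difference by which the libraries could be set against each other, so replicates 3 and 4 were compared with replicates 1 and 2 as a technical check and not as conditions. Gene counts totalled 48875472 and 57126810 in replicates 3 and 4, against 25594340 and 27384162 in replicates 1 and 2. The share of mitochondrially encoded RNA was 3.34% and 3.00% in replicates 3 and 4, against 0.778% and 1.16% in replicates 1 and 2. The 6 macrophage markers, among them Lyz2 and Cd68, summed to 14554.9 to 17275.4 TPM in the 4 libraries, where TPM is the level of a transcript per length, scaled to the same total in each library. The T and NK cell, B cell, fibroblast and erythroid marker lists summed to at most 4.2 TPM in any library, and the 3 endothelial markers to 4.6 to 13.2 TPM. The 6 neutrophil markers summed to 78.5 and 7.0 TPM in replicates 3 and 4, against 89.4 and 14.0 TPM in replicates 1 and 2.

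The cytosolic synthetases were expressed about an order of magnitude above the mitochondrial ones. Averaged over the 4 libraries, all 19 cytosolic genes reached 10 TPM, from 11.8 TPM for Vars to 181.6 TPM for Nars, with a median of 52.3 TPM. Of the 16 mitochondrial genes 5 did so, with a median of 5.25 TPM and means from 0.41 TPM for Mars2 to 177.0 TPM for Lars2. Over the 11991 genes tested the median was 13.7 TPM. On the log2(TPM + 1) scale the cytosolic median lay above the mitochondrial median by 3.16 and 3.38 (replicates 3 and 4) and by 2.65 and 3.00 (replicates 1 and 2), a mean difference of 3.05 ± 0.31 (SD, n = 4). In bulk RNA such as this, fewer cells that express a gene and less of its RNA per cell cannot be told apart.

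**Figure D1:**
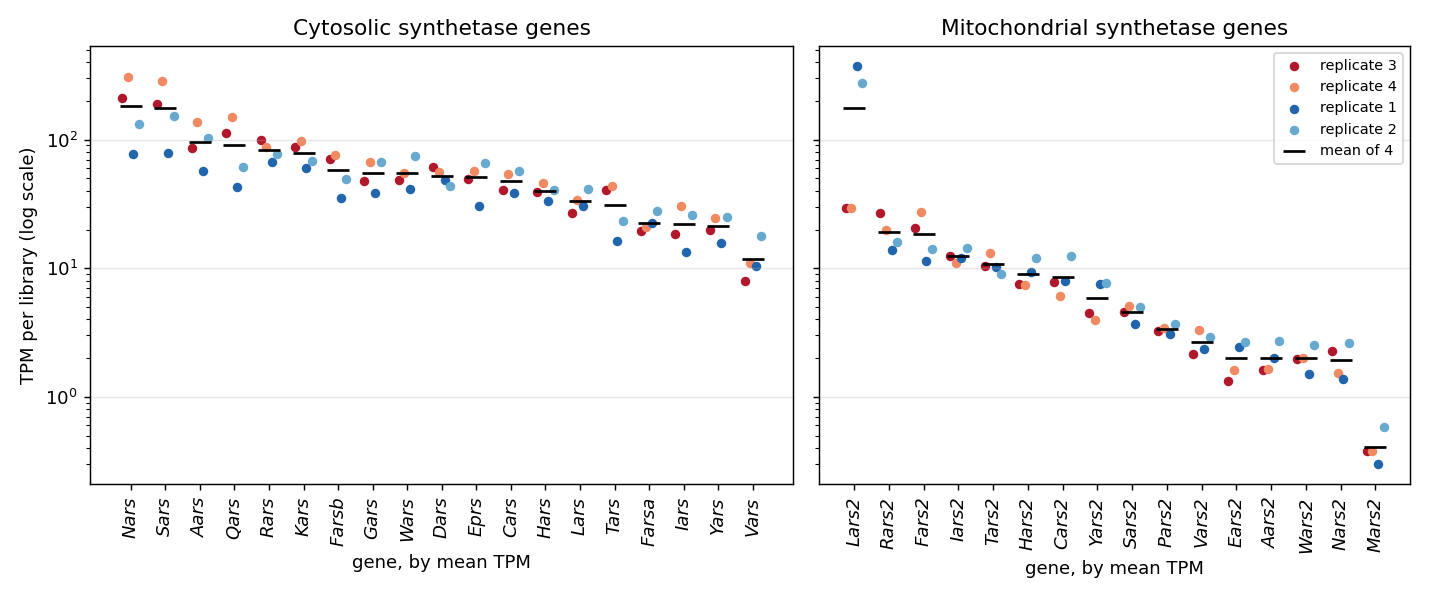
TPM of the 35 synthetase genes in each library, on a log axis, cytosolic genes on the left and mitochondrial genes on the right, ordered by mean. Points are libraries (replicates 3 and 4 in reds, 1 and 2 in blues) and bars are means of 4. The cytosolic means run from 181.6 TPM (Nars) to 11.8 TPM (Vars), and Lars2 stands apart among the mitochondrial genes, at 29.2 and 29.3 TPM in replicates 3 and 4 against 374.4 and 274.9 TPM in replicates 1 and 2.

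ATF4 is known to act on target promoters through the C/EBP-ATF composite element, and that of Asns, the asparagine synthetase gene, is the classical example. The core of this element, TGATGNAAN, was searched on both strands in the RefSeq promoters (GRCm38.p6, 250 bases before to 50 after the annotated start), which held 26 of the 35 synthetase genes. Not matched were Cars, Hars, Hars2, Lars, Nars, Pars2, Rars, Vars and Wars. Of 12 cytosolic promoters 5 held the core, those of Aars, Gars, Iars, Tars and Yars, and of 14 mitochondrial promoters 0 did. Over all 32851 promoters the share was 3.95%, and over 27025 genes it was 4.5%. Windows of 30 bases around a match in each gene are shown so that the shared letters can be read beside those of Asns. They are written on the strand of the gene with the match in capitals, which in Aars, Gars, Iars and Tars lies on the opposite strand and therefore reads as the reverse complement.
Asns: cccagccacaTGATGAAACttcccgcacgc
Yars: cgagctcagcTGATGCAACccgacgggact
Tars: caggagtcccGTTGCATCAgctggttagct
Gars: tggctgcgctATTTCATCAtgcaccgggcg
Iars: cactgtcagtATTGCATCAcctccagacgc
Aars: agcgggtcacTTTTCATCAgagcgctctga

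The Tars window lies at chr15:11399655-11399684 on the minus strand and the Gars window at chr6:55037960-55037989 on the plus strand. The Iars window is at chr13:49682126-49682155, that of Yars at chr4:129189896-129189925, and that of Aars at chr8:111033840-111033869, all on the plus strand. The Asns window is at chr6:7693213-7693242 on the minus strand. The matches shown for Yars, Iars and Aars begin at bases 4, 7 and 9 counted from the annotated start, and those of Asns, Tars and Gars lie before it. Aars has a further match before its start, which is not shown. An interferon response core, the letters GAAA repeated after a gap of 2 bases, was found in the Qars promoter alone among the 26, against 3.44% of all promoters. A match is a run of letters and no evidence of binding, and these data do not measure binding.

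Among the cytosolic enzymes Nars, for asparagine, and Sars, for serine, had the highest mean TPM, with all transcripts of a gene counted. Nars (chr18:64499647-64516652, minus strand, mm10) had 209.4 and 307.5 TPM in replicates 3 and 4, against 77.1 and 132.5 TPM in replicates 1 and 2. Sars (chr3:108424865-108445209, minus strand) had 189.1 and 284.0 TPM in replicates 3 and 4, against 79.2 and 152.9 TPM in replicates 1 and 2. In TPM, replicates 3 and 4 lay above replicates 1 and 2 without overlap in each gene. For Sars this held in TPM alone. Its CPM, counts scaled to library size, was 121.0 and 168.5 in replicates 3 and 4, against 81.2 and 136.8 in replicates 1 and 2. The mean TPM of Nars and Sars, 181.6 ± 100.0 and 176.3 ± 85.1 (SD, n = 4), differed by far less than that spread.

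Aars, the alanine enzyme, which also edits wrongly charged tRNA, followed with 96.2 ± 33.5 TPM. It had 86.7 and 137.9 TPM in replicates 3 and 4, against 57.4 and 102.8 TPM in replicates 1 and 2, and these ranges overlapped. Its coding transcript Aars-201 had 69.02 and 107.59 TPM in replicates 3 and 4, against 52.78 and 94.59 TPM in replicates 1 and 2. In each library this was above the coding transcript Sars-202, with 536 codons. Sars-202 had 51.97 and 66.02 TPM in replicates 3 and 4, against 42.59 and 88.17 TPM in replicates 1 and 2. Sars-201, a further coding transcript, has 512 codons. It had 12.71 and 19.54 TPM in replicates 3 and 4, against 8.7 and 16.9 TPM in replicates 1 and 2. With Sars-201 added to Sars-202, Aars-201 stayed higher in replicates 1, 3 and 4 but not in replicate 2. Of the exonic bases of Aars, 1326 (14.3%) are shared with Exosc6 on the same strand, and how far this affects the level of Aars was not tested. In all, 12 of the 35 genes share exonic bases with another annotated gene, the largest share being the 22.9% of Iars2 that overlap Rab3gap2 on the opposite strand, and whether the counting used strand is not given in the sources used here. Hars and Hars2 overlap each other by 195 bases at their heads, on opposite strands.

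The enzymes of the multisynthetase complex covered a range of levels. Qars, for glutamine, had 113.3 and 148.8 TPM in replicates 3 and 4, against 42.9 and 60.9 TPM in replicates 1 and 2. Rars, for arginine, had 98.5 and 88.3 TPM in replicates 3 and 4, against 67.1 and 77.6 TPM in replicates 1 and 2. In both genes replicates 3 and 4 were the higher libraries. The margin in TPM was wide in Qars and narrow in Rars, but in log2 counts they differed by a similar 0.45 and 0.39. The other 5 listed enzymes of the complex were Kars, Dars (aspartate), Eprs (a fused enzyme for glutamate and proline), Lars (leucine) and Iars (isoleucine). Their means were 78.3, 52.3, 50.8, 33.1 and 22.1 TPM. With all transcripts of a gene counted, complex members spanned 22.1 to 91.5 TPM, the highest being Qars. On average only 30.1% of the Qars TPM lay on protein-coding transcripts. The scaffold genes averaged 41.6 ± 4.0 TPM for Aimp1, 14.7 ± 5.36 for Aimp2 and 8.61 ± 1.62 for Eef1e1 (SD, n = 4).

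Kars and Gars charge tRNA in both compartments from 1 gene each. Kars, for lysine, had 87.2 and 97.9 TPM in replicates 3 and 4, against 60.0 and 68.3 TPM in replicates 1 and 2. Its transcript Kars-201, with 595 codons, took on average 87.1% of the gene's TPM, and Kars-202 and Kars-203, with 624 codons, took 6.7% and 4.4%. In human cells the longer form carries the mitochondrial targeting sequence. Gars, for glycine, had 47.4 and 66.6 TPM in replicates 3 and 4, against 38.6 and 67.3 TPM in replicates 1 and 2, and 99.7% of it lay on the single coding transcript Gars-201, so its forms could not be told apart by transcript. The 2 pairs of libraries overlapped in Gars and did not in Kars.

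Wars, for tryptophan, is known as an interferon-induced gene in human cells. It had 48.3 and 54.9 TPM in replicates 3 and 4, against 41.0 and 74.4 TPM in replicates 1 and 2, with a mean of 54.7 ± 14.3 TPM (SD, n = 4), and 85.4% of it lay on Wars-201, which encodes 475 codons. Its mean was close to the cytosolic median of 52.3 TPM. The other cytosolic genes had means of 57.9 TPM (Farsb, the beta subunit for phenylalanine), 47.7 (Cars, cysteine), 39.8 (Hars, histidine), 31 (Tars, threonine), 22.6 (Farsa, the alpha subunit for phenylalanine), 21.3 (Yars, tyrosine) and 11.8 TPM (Vars, valine). Farsb stood above Farsa in each library, at 71.0 and 75.7 against 19.4 and 20.9 TPM in replicates 3 and 4, and at 35.4 and 49.6 against 22.5 and 27.8 TPM in replicates 1 and 2. Farsb-201, with 589 codons, had 31.52 and 30.77 TPM in replicates 3 and 4, against 29.44 and 40.32 TPM in replicates 1 and 2. Farsa-201, with 508 codons, had 16.05 and 18.02 TPM, against 21.64 and 21.69 TPM in the same libraries. Between these coding transcripts the gap in replicates 3 and 4 was smaller than between the genes. The enzyme itself holds equal numbers of both subunits.

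Among the mitochondrial enzymes other than Lars2, Rars2 and Fars2 had the highest mean TPM and Mars2 the lowest. Rars2, for arginine, had 26.9 and 19.7 TPM in replicates 3 and 4, against 13.8 and 15.9 TPM in replicates 1 and 2. Fars2, for phenylalanine, had 20.7 and 27.6 TPM in replicates 3 and 4, against 11.4 and 14.1 TPM in replicates 1 and 2. In TPM both genes were higher in replicates 3 and 4 without overlap, but Fars2 was so in TPM alone. Its CPM, counts scaled to library size, was 10.4 and 11.7 in replicates 3 and 4, against 10.7 and 11.9 in replicates 1 and 2. The effective length by which its counts were divided for TPM was 723 and 617 bases in replicates 3 and 4, against 1256 and 1342 bases in replicates 1 and 2. In replicates 1 and 2 Iars2, for isoleucine, lay slightly above Fars2, at 12.1 and 14.4 TPM.

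At the low end, Mars2, for methionine, had 0.38 and 0.38 TPM in replicates 3 and 4, against 0.30 and 0.58 TPM in replicates 1 and 2, on 57 to 171 counts. Nars2, for asparagine, had 2.29 and 1.53 TPM in replicates 3 and 4, against 1.38 and 2.60 TPM in replicates 1 and 2. Wars2, for tryptophan, had 1.97 and 2.02 TPM in replicates 3 and 4, against 1.5 and 2.51 TPM in replicates 1 and 2. In these 3 genes the pairs of libraries overlapped. The other mitochondrial genes had means of 12.5 TPM (Iars2), 10.7 (Tars2), 9.08 (Hars2), 8.57 (Cars2), 5.92 (Yars2), 4.59 (Sars2), 3.38 (Pars2), 2.68 (Vars2), 2.01 (Ears2) and 2.00 TPM (Aars2). Aars2, Wars2, Nars2 and Ears2 differed in their means by less than the SD of each, so they have no order among themselves.

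Each cytosolic enzyme was set against its mitochondrial counterpart within each library, as log2 of the cytosolic TPM + 1 over the mitochondrial TPM + 1, in 16 pairs. In 14 of the 16 the cytosolic gene was higher in all 4 libraries, each at an exact two-sided sign-flip permutation p = 0.13, the smallest that 4 libraries allow (0.143 adjusted over the 16 pairs). The ratio was largest for asparagine. Nars over Nars2 was 6.00 and 6.93 in replicates 3 and 4, against 5.04 and 5.21 in replicates 1 and 2, a mean of 5.79 ± 0.87 (SD, n = 4). Aars over Aars2 averaged 4.96 ± 0.60 and Sars over Sars2 4.86 ± 0.62. Wars over Wars2 varied least among these, at 4.05 and 4.21 in replicates 3 and 4, against 4.07 and 4.43 in replicates 1 and 2.

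Eprs, which serves glutamate and proline, exceeded Ears2 by 4.07 ± 0.60 and Pars2 by 3.51 ± 0.40. Of the remaining positive pairs, Cars, Rars and Hars averaged 2.37, 2.09 and 2.03 above their counterparts, and Vars, Yars, Farsb and Tars 1.75, 1.71, 1.61 and 1.36. Iars over Iars2 was the smallest at 0.72 ± 0.53, with 0.14 in replicate 1. The ratio of Farsa over Fars2 had no common sign, at -0.09 and -0.39 in replicates 3 and 4, against 0.92 and 0.93 in replicates 1 and 2 (exact permutation p = 0.5). Lars over Lars2 was the only pair with a negative mean, -1.55 ± 1.87, at -0.13 and 0.20 in replicates 3 and 4, against -3.57 and -2.70 in replicates 1 and 2 (exact permutation p = 0.375). When only transcripts annotated as protein coding were counted, a choice made after the values were seen, the cytosolic gene was higher in all 4 libraries in 16 of the 16 pairs.

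**Figure D2:**
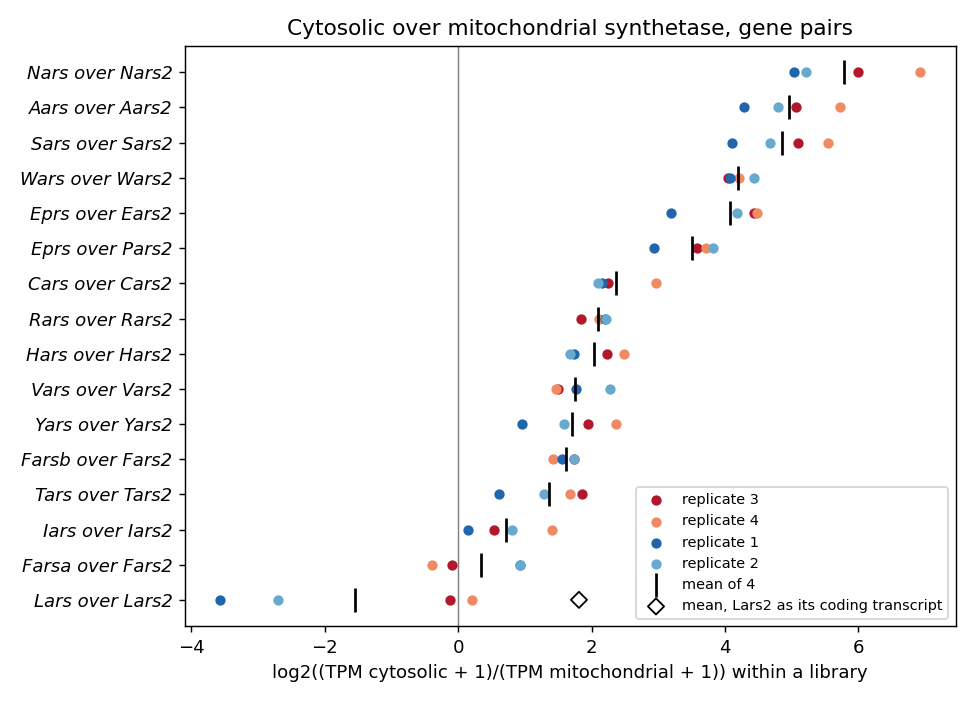
Log2 ratio of cytosolic over mitochondrial synthetase TPM (pseudocount 1) for 16 gene pairs, ordered by mean. Points are libraries, bars are means of 4, and the diamond is the mean of the leucine pair when Lars2 is taken as its transcript Lars2-201 alone (1.81). That choice was made after the values were seen. In 14 pairs all points lie right of 0, and the leucine pair lies at -1.55 on average.

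Lars2, the mitochondrial leucine enzyme (ENSMUSG00000035202.8, chr9:123366927-123462666, plus strand), had 29.2 and 29.3 TPM in replicates 3 and 4, against 374.4 and 274.9 TPM in replicates 1 and 2. Its libraries differed up to 12.8-fold, against at most 3.99-fold (Nars) in any other synthetase gene. Nearly all of the excess was assigned to Lars2-209, a transcript annotated for nonsense-mediated decay, the surveillance pathway that degrades RNA with an early stop codon. Lars2-209 had 19.82 and 15.66 TPM in replicates 3 and 4, against 369.41 and 265.94 TPM in replicates 1 and 2.

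The protein-coding Lars2-201 did not share this excess, with 9.21 and 13.61 TPM in replicates 3 and 4, against 4.96 and 8.74 TPM in replicates 1 and 2. Its share of the gene was 31.5% and 46.4% in replicates 3 and 4, against 1.3% and 3.2% in replicates 1 and 2. At the level of Lars2-201, a choice made after the values were seen, the leucine pair had the sign of most other pairs. Lars, with all its transcripts counted, exceeded Lars2-201 in all 4 libraries, by a mean of 1.81 on the log2 scale. With only protein-coding transcripts counted for both genes, the mean was 1.27.

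**Figure D3:**
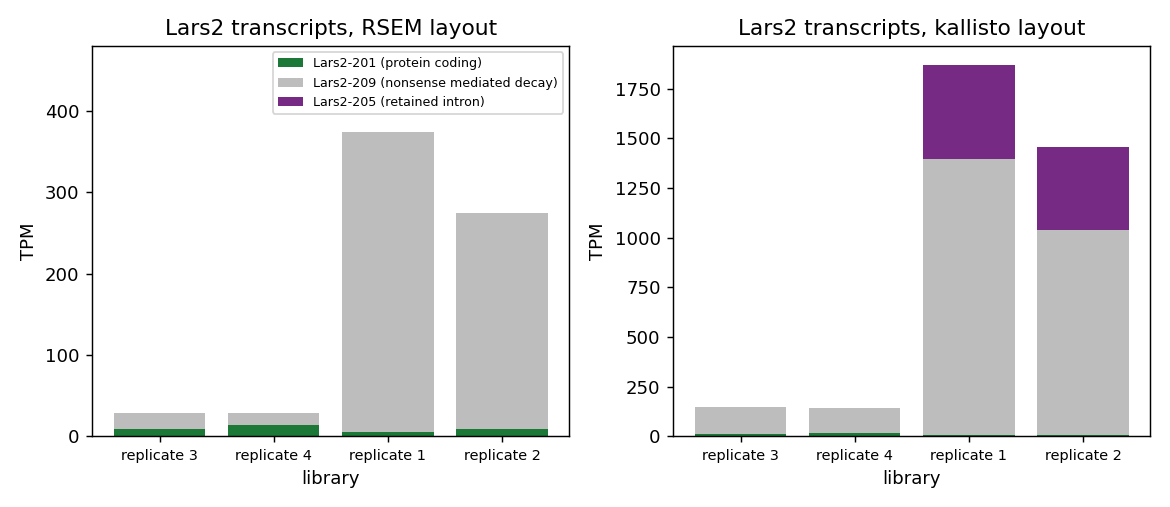
TPM of the Lars2 transcripts by library in the RSEM-layout table (left) and the kallisto-layout table (right), stacked, with different axes that both start at 0. The protein-coding Lars2-201 (green) lies between 4.96 and 13.61 TPM on the left, while Lars2-209 (grey) differs between 15.66 and 369.41 TPM.

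The second quantification, deposited in the column layout of kallisto, placed still more on the gene. There Lars2 had 149.2 and 141.7 TPM in replicates 3 and 4, against 1870.8 and 1457.6 TPM in replicates 1 and 2. It was the only synthetase whose TPM differed at least 2-fold between the quantifications, the same way in all 4 libraries, 1 of 35, against 1.42% of all genes. Part of that level was put on Lars2-205, a retained-intron transcript, with 0.0 TPM in replicates 3 and 4, against 473.3 and 419.3 TPM in replicates 1 and 2.

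The 3' part of Lars2-209 shares stretches of 31 bases with 2 other annotated loci on its own strand. Between bases 3032 and 3173 of the transcript, 26 stretches of that length, which overlap each other, occur also in AA474408. Between bases 3138 and 3189, 22 occur in Gm15564. Lars2-201 shares as many with each locus. AA474408 moved with Lars2 in the kallisto-layout table, at 52.7 and 62.0 TPM in replicates 3 and 4 against 385.3 and 320.2 TPM in replicates 1 and 2, and it was at 0.06 to 0.15 TPM in the RSEM-layout table. Reads from these loci and from Lars2 are therefore uncertain. The rRNA gene CT010467.1 also differed along the same split, at 3125.5 and 3490.4 TPM in replicates 3 and 4 against 84919.8 and 10124.0 TPM in replicates 1 and 2. The part of these loci in the Lars2 result was not tested.

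Replicates 3 and 4 were compared with replicates 1 and 2 by edgeR's quasi-likelihood test over 11991 genes. It called 696 genes at an adjusted p under 0.05 (5.8%), 250 higher (2.08%) and 446 lower (3.72%). Of the 35 synthetases 1 was called, Lars2, which fell by 3.47 on the log2 scale (SE 0.30, adjusted p = 0.0187). This call was lost without replicate 3 (-3.46, adjusted p = 0.186) and without replicate 4 (-3.46, adjusted p = 0.222), each of which left 1 library on its side. In those fits edgeR called 0 genes among all, with 1955 and 1966 at an unadjusted p under 0.05. Counted on Lars2-201 alone, the fold change was 0.77 with an adjusted p of 0.138.

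No cytosolic synthetase was called, and 6 of the 19 had an unadjusted p under 0.05, against 28.5% of all genes. DESeq2, which called 15.6% of all genes, called 1 of the 19, Kars. The fold change was positive in 15 of 19 cytosolic genes, with a median of 0.36, and in 7 of 16 mitochondrial genes, with a median of -0.07, while 5884 of the 11991 genes were positive and the median of all genes was -0.01. The cytosolic figures depended on single libraries: without replicate 1, and likewise without replicate 4, 12 of 19 were positive with a median of 0.10. With offsets for GC content and length 15 of 19 stayed positive, with a median of 0.21. Nars had 0.61 (SE 0.24, adjusted p = 0.167) with all libraries and 0.40 without replicate 1, and Vars had -0.53 (SE 0.25) with all libraries, -0.20 without replicate 2 and -0.26 with the offsets. Kars had 0.54 (SE 0.15, adjusted p = 0.0845), with an adjusted p of 0.042 in DESeq2. Among mitochondrial genes besides Lars2, Rars2 had 0.57 (SE 0.19, adjusted p = 0.123) and Yars2 -0.79 (SE 0.24, adjusted p = 0.0994), neither past the threshold.

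By TPM, 8 of the 19 cytosolic and 3 of the 16 mitochondrial genes had both of replicates 3 and 4 above replicates 1 and 2, against 29.6% of all genes. Conversely, 1 cytosolic and 6 mitochondrial genes had both below, against 26.9% of all genes. The 8 cytosolic genes were Nars, Sars, Qars, Rars, Kars, Farsb, Dars and Tars, and in several of them TPM differed more than counts. Nars differed by 1.29 in log2 TPM and by 0.61 in log2 counts, Qars by 1.32 and 0.45, Tars by 1.05 and 0.47, and Sars by 1.02 and 0.41.

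The gap matched the effective lengths that the deposited table used for TPM. The length of Nars was 1534 and 1383 bases in replicates 3 and 4, against 2430 and 2363 bases in replicates 1 and 2. That of Qars was 903 and 836 bases in replicates 3 and 4, against 1672 and 1581 bases in replicates 1 and 2. For comparison, Rars, with no such gap, had 1841 and 1824 bases in replicates 3 and 4, against 1839 and 1823 bases in replicates 1 and 2. In this table layout a gene's effective length is an average over its transcripts weighted by their share, so it falls when more of the gene is put on short transcripts.

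Short transcripts of several synthetase genes, picked out after their values were seen, carried a larger share of the gene in replicates 3 and 4. Others went the other way: Cars-211, of 558 bases, took 1.5% and 11.0% in replicates 3 and 4, against 16.6% and 15.4% in replicates 1 and 2, and Qars-223, of 1052 bases, took 1.5% and 2.6%, against 19.5% and 3.5%. Nars-206, annotated for nonsense-mediated decay and 935 bases long, took 26.7% and 35.8% of the Nars TPM in replicates 3 and 4, against 0.0% and 0.7% in replicates 1 and 2. Qars-215, a retained-intron transcript of 600 bases, took 42.2% and 42.0% in replicates 3 and 4, against 4.4% and 0.0% in replicates 1 and 2. Tars-202, another retained-intron transcript, of 539 bases, took 37.6% and 37.4% in replicates 3 and 4, against 0.0% in replicates 1 and 2. For Nars-206, Qars-215 and Tars-202, unlike Cars-211 and Qars-223, the 2 pairs of libraries were apart by more than the libraries within a pair.

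The same held for Sars-204, a coding transcript of 186 codons beside the 536 of Sars-202, with 65.6% and 69.6% in replicates 3 and 4, against 35% and 30.7% in replicates 1 and 2. Farsb-203 took 38.9% and 45.2% in replicates 3 and 4, against 2.1% and 6.3% in replicates 1 and 2. The direction was the same in the kallisto-layout table, where Tars-202 took 44.3% and 49.5% in replicates 3 and 4, against 26.3% and 29.1% in replicates 1 and 2, a smaller step than in the RSEM-layout table.

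**Figure D4:**
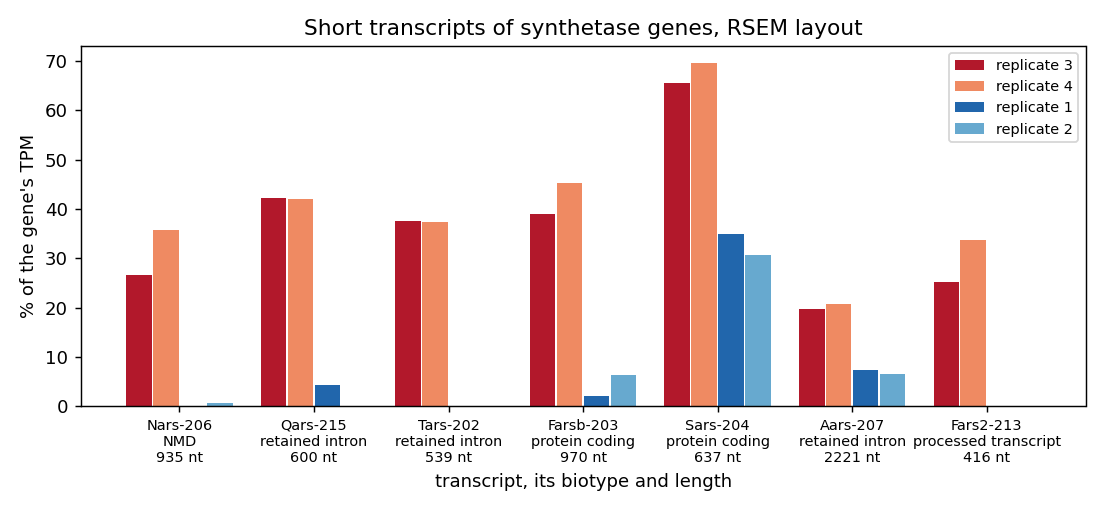
Share of each gene's TPM carried by 7 short transcripts, by library, in the RSEM-layout table, replicates 3 and 4 in reds and replicates 1 and 2 in blues. Every transcript shown took a larger share in replicates 3 and 4, from 19.7% and 20.8% (Aars-207) to 65.6% and 69.6% (Sars-204), and the transcripts were chosen after their values were seen.

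Over all 35 synthetases the median share of TPM on protein-coding transcripts was 88.3% and 88.5% in replicates 3 and 4, against 94.6% and 91.6% in replicates 1 and 2. For all 10928 protein-coding genes tested it was 97.6% and 97.8% in replicates 3 and 4, against 98.2% and 96.6% in replicates 1 and 2. A mean under 50% was found in 3 of 35 synthetases, Qars (30.1%), Cars2 (28.7%) and Lars2 (20.6%), that is 8.57% of them against 6.52% of protein-coding genes. In Qars the largest part on average, 31.7%, was Qars-231, annotated for nonsense-mediated decay. The coding transcript Qars-203, with 751 codons, had 4.44 and 6.73 TPM in replicates 3 and 4, against 8.87 and 11.01 TPM in replicates 1 and 2 in the RSEM-layout table. The kallisto-layout table had the other direction for it, at 4.97 and 6.54 TPM in replicates 3 and 4, against 1.94 and 4.37 TPM in replicates 1 and 2.

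Within each pair of libraries with the same number of read files, most cytosolic synthetases differed in the same direction. On counts scaled to library size by TMM (CPM), 16 of 19 were higher in replicate 4 than in replicate 3, against 50.2% of all genes, and 16 of 19 were higher in replicate 2 than in replicate 1, against 48.1%. In both comparisons 15 of 19 were higher and 2 of 19 lower, against 27.4% and 29.1% of all genes. Among mitochondrial synthetases 4 of 16 were higher and 1 of 16 lower in both. The differences were below 1 log2 unit in each cytosolic gene. Iars differed by 0.70 between replicates 4 and 3 and by 0.67 between replicates 2 and 1, Aars by 0.62 and 0.59, and Sars by 0.48 and 0.75. With 1 library on each side these differences have no test.

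The integrated stress response list, 17 genes that hold known ATF4 targets and their regulators, went in the same direction. In both comparisons 14 of 17 were higher and 0 of 17 lower, against 27.4% and 29.1% of all genes. Asns had 31.5 TPM in replicate 4 against 12.5 TPM in replicate 3, and 33.4 TPM in replicate 2 against 10.2 TPM in replicate 1. Atf4 had 252.2 against 194.0 TPM and 320.7 against 192.8 TPM in the same comparisons. Ddit3, a transcription factor induced under stress, had 465.4 against 383.9 TPM and 590.1 against 230.2 TPM. On the log2 CPM scale Asns differed by 1.34 and 1.44, more than any synthetase, and Atf4 by 0.35 and 0.49, close to the 0.38 and 0.50 of Nars.

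The sum of the neutrophil markers moved with these values in the opposite direction. The 6 listed markers summed to 7.0 TPM in replicate 4 against 78.5 TPM in replicate 3, and to 14.0 TPM in replicate 2 against 89.4 TPM in replicate 1. Nearly all of it was S100a8, S100a9 and Ngp. Ngp, a granule protein, had 0.59 TPM in replicate 4 against 9.44 TPM in replicate 3, and 0.28 TPM in replicate 2 against 5.15 TPM in replicate 1. The granule genes Camp, Mpo and Elane stayed at or below 0.65 TPM in every library, and Mpo and Elane were at 0 in replicate 2. Between replicates 2 and 1 Camp went the other way, at 0.65 against 0.47 TPM. Of the 3 endothelial markers, Vwf alone was higher in both comparisons, the direction of most cytosolic synthetases. It had 6.98 TPM in replicate 4 against 2.36 TPM in replicate 3, and 12.2 TPM in replicate 2 against 2.28 TPM in replicate 1. In the same comparisons Cdh5 had no common direction, at 3.54 against 2.28 TPM and 1.06 against 3.11 TPM. Cldn5 was at 0 in every library. The sums of the 3 endothelial markers were 10.5 against 4.6 TPM and 13.2 against 5.4 TPM. The part of these markers in the synthetase values was not tested.

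**Figure D5:**
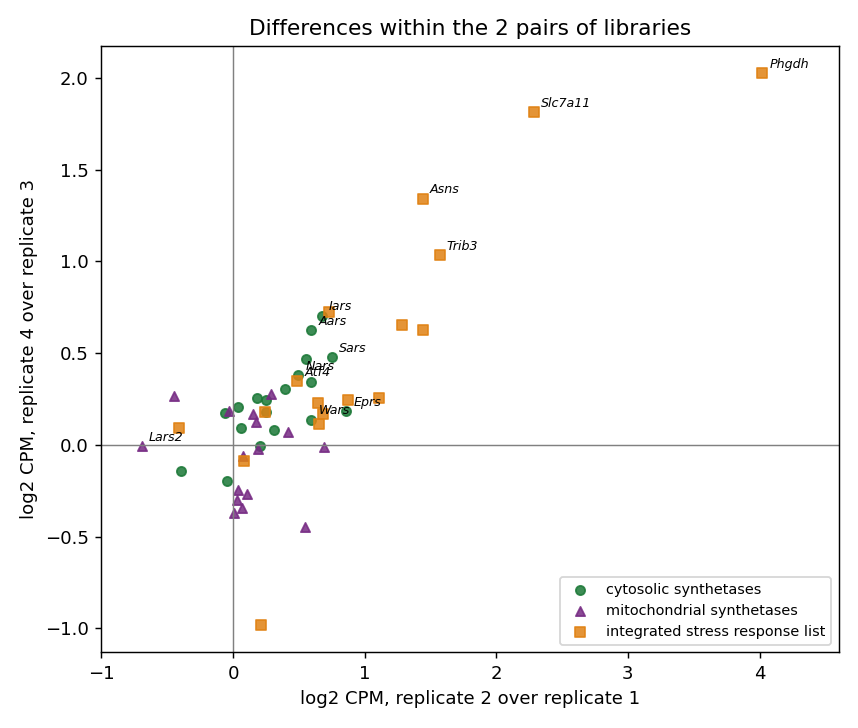
Log2 ratio of TMM-scaled CPM between libraries with the same number of read files, replicate 2 over 1 on the x axis and replicate 4 over 3 on the y axis. Points are genes. In the upper right lie 15 of 19 cytosolic synthetases, 4 of 16 mitochondrial synthetases and 14 of 17 genes of the integrated stress response list, with Asns at 1.44 and 1.34. Of all genes tested, 27.4% were higher in both comparisons.

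Of 44 genes on lists of synthetase partners, translation factors, stress response genes and eIF2 kinases, 2 were called in the comparison of replicates 3 and 4 with replicates 1 and 2, against 5.8% of all genes in the same fit. Gatc, a subunit of the amidotransferase that makes glutaminyl-tRNA in mitochondria, had 29.9 and 33.4 TPM in replicates 3 and 4, against 16.7 and 17.1 TPM in replicates 1 and 2, and rose by 0.91 on the log2 scale (SE 0.16, adjusted p = 0.0423). Tsfm, a mitochondrial elongation factor, had 5.10 and 4.28 TPM in replicates 3 and 4, against 9.05 and 11.6 TPM in replicates 1 and 2, and fell by 1.33 (SE 0.24, adjusted p = 0.0433). Both calls were lost with offsets for GC content and length, at adjusted p = 0.0515 for Gatc and 0.0503 for Tsfm, and when any of the 4 replicates was left out, at 0.0634 to 0.241 for Gatc and 0.071 to 0.243 for Tsfm. The fold changes themselves stayed between 0.80 and 1.04 for Gatc and between -1.41 and -1.22 for Tsfm over the alternatives run.

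By list, 1 of 3 amidotransferase genes and 1 of 8 mitochondrial translation factors were called. None of the 3 scaffold genes, the 4 trans-editing genes, which clear wrongly charged tRNA, the 5 cytosolic elongation factors, the 17 stress response genes or the 4 eIF2 kinases was called by edgeR. DESeq2 called 6 of the 44 genes, against 15.6% of all genes. Among them were 1 of 3 amidotransferase genes (Gatc, higher) and 3 of 8 mitochondrial translation factors (Gfm1 and Mtif3 higher, Tsfm lower). The others were 1 of the 17 stress response genes (Trib3, lower) and 1 of the 4 kinases (Eif2ak1, higher). DESeq2 called 0 of the scaffold, trans-editing and elongation factor genes. At an unadjusted p under 0.05 edgeR gave 0 scaffold, 0 trans-editing, 3 elongation factor, 3 stress response and 1 kinase genes, against 28.5% of all genes. The stress response list had a median fold change of -0.33, with 4 positive and 13 negative. This median was -0.07 without replicate 2, with 8 positive and 9 negative, and -0.50 without replicate 4, with 2 positive and 15 negative.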

How the data were processed

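RNA was measured in 4 libraries of 1 group. Per the deposited notes, the tables were made on mm10 with GENCODE M21; the aligner and counting programs were not named in the sources used here, and the tables are called RSEM-layout and kallisto-layout after their columns. Per the file headers, the deposited gene and transcript tables give expected counts with no normalization and TPM scaled within each library, and the second transcript tables give estimated counts and TPM. Of 81881 gene rows, 97 spike-in and 26248 tRNA rows were left out; they held at most 0.128% of counts.

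Levels are the deposited TPM of the RSEM-layout tables. Rounded expected counts were fitted in R 4.3.3 with edgeR 4.0.16 by its quasi-likelihood test, with TMM scaling, a low-count filter (filterByExpr, minimum count 10) and a Benjamini-Hochberg threshold of 0.05; each SE was taken from the fold change and F. DESeq2 1.42.0 was an alternative, and the edgeR fit was tested on simulated counts. Pair ratios used a pseudocount of 1 and an exact sign-flip permutation test. Values per library are given for the 5 cytosolic and 3 mitochondrial genes of highest mean TPM, the 3 of lowest, called genes, Wars, Wars2, Gars and Kars; other genes and transcripts given per library were chosen after their values were seen, as was the comparison within pairs of libraries. The genes, lists and tests were chosen with earlier results of these data known. Alternatives were other scaling, filters, pseudocounts, offsets for GC content and length, the kallisto-layout tables and leaving out each replicate. Promoter sequences are from RefSeq, and not every matching window is reported here. Python 3.11.15, pandas 2.3.3, numpy 2.4.6 and matplotlib 3.10.9 made tables and figures.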

Additional observations from a re-analysis of the deposited data

Results flagged for a closer look

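In Iars, 99.5% of the TPM in replicate 3 lay on protein-coding transcripts, below the other 3 libraries, all at 100.0%. In Sars, 99.4% of the TPM in replicate 2 did, also the lowest of its 4 libraries. Each was picked out because its gap to the next library was large for the range of 4 values, and both gaps are under 1 percentage point. These were 2 of 86 groups of 4 values examined (levels, pair ratios and coding shares), where chance gives about 1 in 20.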

How the results depend on the processing

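The cytosolic list stood above the mitochondrial one under every alternative run, by 2.82 to 3.27 on the log2 scale, and at least 14 of the 16 pairs stayed positive in all libraries used. The count of called genes was less firm. Without a filter on low counts it was 2569 genes in all, 3 synthetases (Kars, Lars2 and Nars) and 8 partner genes; with DESeq2 it was 1866, 2 and 6; with GC and length offsets no partner gene was called (0). Leaving out a replicate gave 0 to 671 genes in all (177 without replicate 1, 671 without replicate 2, 0 without replicate 3 or 4), 0 to 1 synthetases and 0 to 1 partner genes (Nupr1, without replicate 2); the lone library was then assumed to vary like the others. With Lars2 counted on Lars2-201 alone, an alternative chosen after seeing the data, 0 synthetases were called and the Lars2 fold change reversed to 0.77; Lars over Lars2 reversed to 1.81, and to 1.27 with protein-coding transcripts only, also chosen after seeing the data. Leaving out a replicate also changed the sign of 0 to 3 cytosolic fold changes (Eprs, Gars and Yars without replicate 1, Wars without replicate 2, Gars, Iars and Yars without replicate 4) and of 1 to 3 mitochondrial ones, and gave -0.38 to 0.19 for Wars (above 0 without replicate 2) and -0.12 to 0.44 for Gars (below 0 without replicate 1, at -0.10, and without replicate 4). The motif count was 3 promoters (Aars, Gars and Tars) in the 250 bases before the start alone, which leaves out the Iars and Yars matches after it. The causes of the other changes were not tested, except that fewer libraries enter a fit that leaves out a library. No paired analysis was possible because the series has 1 group. Depth limits the lowest genes most: Mars2 had 57 counts in replicate 1.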
